A study of Mus musculus with 6 samples.

Results

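Expression of 10 genes of necroptosis, pyroptosis and the inflammasome was followed in cultures of mouse myeloid-derived suppressor cells (MDSCs), immature myeloid cells that restrain T cells. They are Zbp1, Ripk1, Ripk3, Mlkl and Casp8 of the necroptosis branch, and Nlrp3, Pycard, Casp1, Casp4 and Gsdmd of the inflammasome and pyroptosis branch. They were taken by name from the 55359 genes of the count table, and all 10 were among the 11190 genes with enough reads to be tested. Both groups were C57BL/6 bone marrow cells cultured for 4 days with GM-CSF and IL-6 at 40 ng/ml each, from which polymorphonuclear MDSCs were then isolated with a kit. In the mtDNA group (3 libraries) the cells had received mitochondrial DNA, 250 ng/ml, with a lipid transfection reagent, and in the blank group (3 libraries) they had received no mtDNA; RNA was taken at 12 h. Whether blank cells were given the reagent is not stated, and no group received another DNA, so effects of mtDNA, of transfected DNA in general and of the reagent cannot be told apart. The labels do not tie the libraries to separate mice or cultures, and a p-value here rests on the variation among these 6 libraries alone, and that variation may be technical.

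Necroptosis and pyroptosis are both lytic forms of cell death that end in rupture of the plasma membrane. In necroptosis, ZBP1 or the kinase RIPK1 engages the kinase RIPK3 through a shared interaction motif, and RIPK3 then phosphorylates the pseudokinase MLKL, which breaches the membrane unless caspase 8 cleaves the kinases first. In pyroptosis, a sensor such as NLRP3 assembles with the adaptor ASC (the product of Pycard) to activate caspase 1, or caspase 11 (the product of mouse Casp4) is activated by cytosolic lipopolysaccharide, and either caspase cuts gasdermin D into a pore-forming fragment. Zbp1, Mlkl and Casp4 are known as interferon-inducible genes in mouse myeloid cells. This is background only, and whether interferon took part in the changes below was not tested.

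Promoter sequences from RefSeq (GRCm38.p6) were available for 8 of the 10 genes, with 11 start sites; Zbp1 and Gsdmd had no entry. The 250 bases before each start were searched on both strands for the core of the interferon-stimulated response element (ISRE), written TTTCNNTTTC, for the STAT-binding GAS element, written TTCNNNGAA, and for the NF-kB consensus. The ISRE core was found in 0 of the 8 genes and in 3.46% of all 27018 genes with a promoter window. The GAS element was found in Ripk1 alone among the 8, and in 8.13% of all these genes. In Ripk1 only the second of 2 starts had it. The NF-kB consensus was found in Casp4, at both starts, and in Nlrp3, at 1 of 2 starts, and in 8.24% of all these genes. These matches are letters only and show no binding. The windows of 4 genes are shown, those of Mlkl and Casp4, which had the largest rises among the genes with an entry, of Casp1, which lies close to Casp4 on chromosome 9, and of Ripk1, which did not pass the test; each runs 5′ to 3′ on the gene's strand, ends at the base before the start, and has its matches in capitals.
Mlkl, chr8:111338206-111338455, minus strand: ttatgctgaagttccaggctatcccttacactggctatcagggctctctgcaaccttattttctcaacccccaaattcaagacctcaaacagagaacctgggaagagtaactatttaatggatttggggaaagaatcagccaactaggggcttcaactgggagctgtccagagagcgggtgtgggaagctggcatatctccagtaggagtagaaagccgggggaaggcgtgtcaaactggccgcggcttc
Casp4, first of 2 starts, chr9:5308599-5308848, plus strand: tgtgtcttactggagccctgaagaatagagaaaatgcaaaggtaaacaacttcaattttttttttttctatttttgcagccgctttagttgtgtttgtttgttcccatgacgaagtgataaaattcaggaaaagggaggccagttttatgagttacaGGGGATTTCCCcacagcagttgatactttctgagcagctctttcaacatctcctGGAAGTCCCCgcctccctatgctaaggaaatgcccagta
Casp1, chr9:5298267-5298516, plus strand: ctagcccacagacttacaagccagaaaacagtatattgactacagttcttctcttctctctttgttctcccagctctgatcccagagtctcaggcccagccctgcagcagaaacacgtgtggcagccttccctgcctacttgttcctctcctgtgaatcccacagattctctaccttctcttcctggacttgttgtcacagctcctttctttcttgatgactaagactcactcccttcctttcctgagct
Ripk1, second of 2 starts, chr13:34002624-34002873, plus strand: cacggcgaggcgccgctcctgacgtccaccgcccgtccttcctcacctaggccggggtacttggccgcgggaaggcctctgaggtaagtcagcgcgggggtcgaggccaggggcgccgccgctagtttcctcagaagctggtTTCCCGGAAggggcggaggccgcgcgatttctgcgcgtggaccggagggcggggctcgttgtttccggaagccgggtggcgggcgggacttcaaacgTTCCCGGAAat
In Casp4 the capitals mark overlapping NF-kB matches at 93 to 83 bases before the start and another at 39 to 30 bases. In Ripk1 they mark GAS matches at 108 to 100 and at 11 to 3 bases before the start.

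Library totals ran from 4144481 to 4911103 reads in the mtDNA group and from 4018360 to 4796800 in the blank group. On these totals 1 read was worth 0.204 to 0.249 CPM (counts divided by the library's total and set to a common scale). The CPM values of genes given below rest on the reads of tested genes and on TMM factors (trimmed mean of M-values). There 1 read is worth a slightly different amount. The library mtDNA 1 stood apart from the other two of its group on the second principal component, with a score of 15.9 against -7.47 for mtDNA 2 and -9.27 for mtDNA 3, and values without it are given below. Of 11 monocyte and macrophage markers 6 rose and 0 fell at an edgeR adjusted p under 0.05, beside 11.9% and 5.98% of all tested genes. Their summed level was 4826 to 5125 CPM in mtDNA libraries, against 3882 to 3978 CPM in blank libraries. Most of the difference came from Ly6c2, at 968 CPM in mtDNA and 538 CPM in blank libraries, and Fcgr1, at 327 CPM in mtDNA and 56.4 CPM in blank libraries. The other 9 had log2 fold changes of -0.08 to 0.35, and the list's median was 0.16; the part of these markers in the results below was not tested. The summed level of 13 neutrophil markers, of which 1 rose, overlapped between groups, at 8264 to 8893 CPM in mtDNA and 7928 to 8345 CPM in blank libraries. Ly6g, the surface antigen that defines polymorphonuclear MDSCs, had 78 reads in the mtDNA group and 65 in the blank group, or 5.81 and 4.87 CPM. Mmp8, at 2558 CPM in mtDNA and 2545 CPM in blank libraries, and S100a9, at 1920 and 1819 CPM, were the highest neutrophil markers. Csf1r, a monocyte and macrophage marker, had 1552 CPM in mtDNA and 1424 CPM in blank libraries. The samples thus held transcripts of both lineages, and the share of polymorphonuclear cells was not measured. Of 9 dendritic cell markers, 7 of them tested, 1 rose. Their sums were 3114 to 3301 CPM in mtDNA and 2893 to 3007 CPM in blank libraries. Of 7 eosinophil, basophil and mast cell markers 1 rose. Their sums were 262 to 278 CPM in mtDNA and 231 to 248 CPM in blank libraries. A count of 1 in these lists, as in the neutrophil list, was near the 11.9% of all tested genes that rose. The 5 plasmacytoid dendritic cell markers summed to 274 to 338 CPM in mtDNA and 73.7 to 93.2 CPM in blank libraries, mostly through the interferon-inducible Bst2, while Siglech had 1 and 5 reads. Markers of lymphocytes (15.6 to 22.7 CPM in mtDNA and 17.2 to 18.4 CPM in blank libraries), erythroid cells (0.256 to 2.33 CPM in mtDNA and 0.716 to 2.20 CPM in blank libraries) and stroma (41.1 to 42.3 CPM in mtDNA and 37.9 to 46.4 CPM in blank libraries) overlapped between groups, and Ncr1 and Lum had no read. In such bulk samples a change in the share of a cell type and a change in RNA per cell cannot be told apart.

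The comparison asked whether these genes were transcribed at other levels after mtDNA transfection. Of the 10 genes 8 rose and 0 fell at an edgeR adjusted p under 0.05 over all tested genes, against 11.9% of all tested genes that rose and 5.98% that fell. Of these 3, Zbp1, Mlkl and Casp4, rose at least 2-fold, which 2.51% of all tested genes did. The median log2 fold change of the 10 was 0.45, beside -0.01 over all tested genes. With the libraries scaled by TMM (trimmed mean of M-values), each of the 10 genes had all 3 mtDNA values above all 3 blank values, as had 17.9% of tested genes. The 2 genes that did not pass, Ripk1 and Ripk3, were separated by narrow margins, and both turned negative under library totals alone and under upper-quartile factors.

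**Figure D1:**
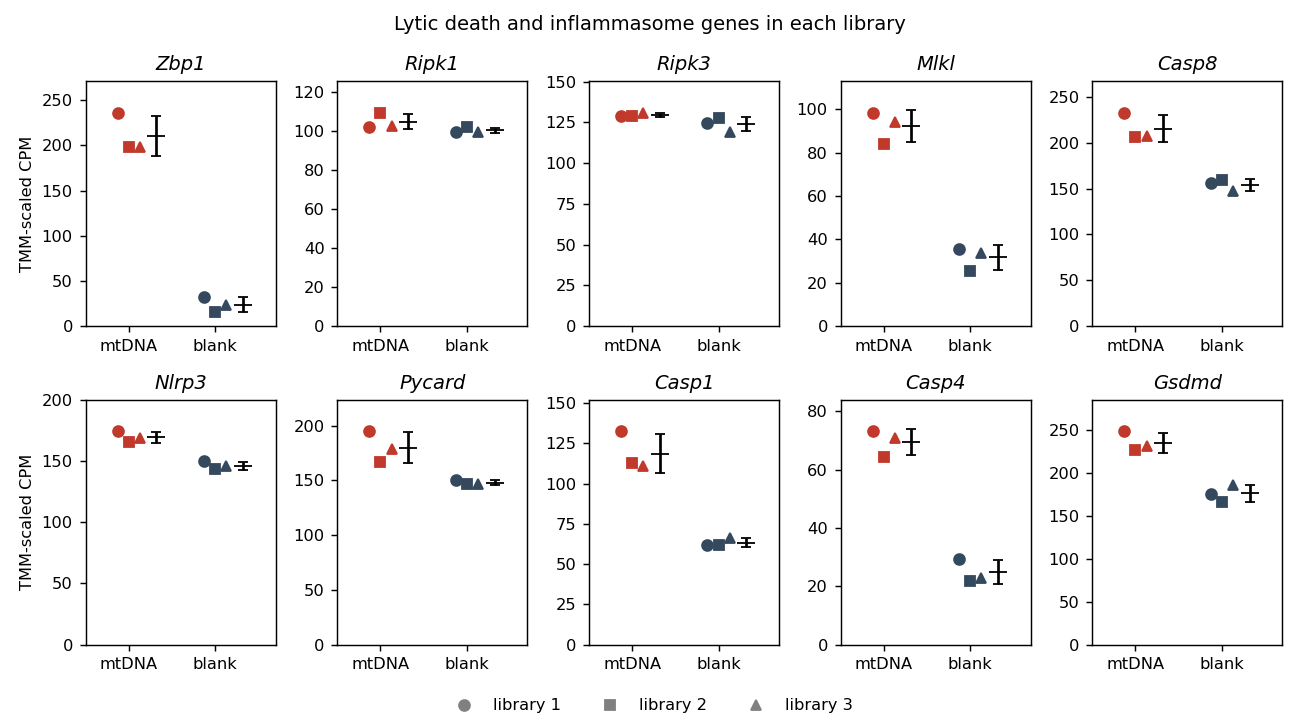
TMM-scaled CPM of the 10 genes in each library, mtDNA left of blank; symbols mark libraries 1 to 3 of a group and carry no pairing, and black marks give the mean ± SD (n = 3). Zbp1 sits between 198 and 236 CPM in mtDNA libraries and between 15.03 and 32.02 CPM in blank libraries, while Ripk1 and Ripk3 nearly coincide.

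Zbp1 (ENSMUSG00000027514, chromosome 2), which encodes the sensor of Z-form nucleic acid, changed most. It had 236, 198 and 198 CPM in mtDNA 1, 2 and 3, against 32.02, 15.03 and 23.6 CPM in blank 1, 2 and 3. The blank libraries were thus spread over a wide relative range (coefficient of variation 36.1%, against 10.4% in mtDNA libraries), yet the lowest mtDNA value lay far above the highest blank value. The rise was 9.05-fold, with a 95% interval of 7.50 to 10.9 (log2 3.18 ± 0.13 SE, edgeR adjusted p = 2.8e-14), and only 51 of the 11190 tested genes had a higher log2 fold change. Leaving out single libraries moved it between 2.91, without blank 2, and 3.46, without blank 1.

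The kinases with which ZBP1 and MLKL act did not pass the test. Ripk3 (ENSMUSG00000022221, chromosome 14), the kinase that activates MLKL, had 129, 129 and 131 CPM in mtDNA libraries and 125, 128 and 119 CPM in blank libraries. Ripk1 (ENSMUSG00000021408, chromosome 13), the kinase downstream of TNF receptors, had 102.2, 109 and 103 CPM in mtDNA libraries and 99.4, 102.0 and 99.6 CPM in blank libraries. On the log2 scale the difference was 0.06 ± 0.06 SE for Ripk3 (adjusted p = 0.517, edgeR) and 0.06 ± 0.06 SE for Ripk1 (adjusted p = 0.555, edgeR). The 95% intervals were 0.959 to 1.14-fold for Ripk3 and 0.953 to 1.14-fold for Ripk1, each of which includes no change. Exons of Ripk1 overlap those of Serpinb6a on the other strand, and the strand setting of the counts is not given in the sources used here; Serpinb6a had 1123 reads in the mtDNA group and 1058 in the blank group (log2 0.10, edgeR adjusted p = 0.405).

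Mlkl (ENSMUSG00000012519, chromosome 8), the membrane-breaching effector, had 98.4, 84.0 and 94.2 CPM in mtDNA libraries, against 35.8, 25.2 and 33.9 CPM in blank libraries. Every mtDNA library was more than 2-fold above every blank library. The rise was 2.93-fold, with a 95% interval of 2.53 to 3.40 (log2 1.55 ± 0.10 SE, edgeR adjusted p = 6.95e-11), and 1.40 to 1.65 on the log2 scale over omissions of single libraries. Casp8 (ENSMUSG00000026029, chromosome 1), the protease that restrains necroptosis and carries death receptor signals, had 233, 207 and 207 CPM in mtDNA libraries and 156, 160 and 147 CPM in blank libraries. Its rise was smaller, at 1.39-fold with a 95% interval of 1.28 to 1.52 (log2 0.48 ± 0.06 SE, edgeR adjusted p = 3.5e-06).

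In the inflammasome branch the sensor and the adaptor had the smallest changes of the 8 called genes. Nlrp3 (ENSMUSG00000032691, chromosome 11), a sensor of membrane and ion disturbance, had 174, 165 and 169 CPM in mtDNA libraries and 149.7, 143 and 146 CPM in blank libraries. Pycard (ENSMUSG00000030793, chromosome 7), the adaptor that links sensors to caspase 1, had 195, 166 and 179 CPM in mtDNA libraries and 150.4, 147 and 147 CPM in blank libraries. Both sets of values were tight in blank libraries, with coefficients of variation of 2.24% for Nlrp3 and 1.40% for Pycard. Nlrp3 rose 1.16-fold, with a 95% interval of 1.07 to 1.26 (log2 0.21 ± 0.06 SE, edgeR adjusted p = 0.0111), and Pycard rose 1.21-fold, with a 95% interval of 1.11 to 1.33 (log2 0.28 ± 0.06 SE, edgeR adjusted p = 0.00252). The call of Nlrp3 ended in DESeq2 (adjusted p = 0.0517), with upper-quartile factors (0.0884) and with library totals (0.227), and that of Pycard with library totals (0.0514).

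The inflammatory caspases had larger fold changes, with 95% intervals wholly above those of Nlrp3 and Pycard. Casp1 (ENSMUSG00000025888, chromosome 9), which encodes the protease that matures interleukin 1 beta and interleukin 18, had 132, 113 and 111 CPM in mtDNA libraries and 61.7, 61.9 and 66.4 CPM in blank libraries. Casp4 (ENSMUSG00000033538, chromosome 9), which encodes caspase 11, had 73.1, 64.5 and 70.7 CPM in mtDNA libraries and 29.4, 21.8 and 22.9 CPM in blank libraries. For both genes the groups were far apart, and blank 1 had the highest blank value of Casp4. Casp1 rose 1.87-fold, with a 95% interval of 1.67 to 2.09 (log2 0.90 ± 0.08 SE, edgeR adjusted p = 6.8e-09), and Casp4 rose 2.81-fold, with a 95% interval of 2.42 to 3.27 (log2 1.49 ± 0.10 SE, edgeR adjusted p = 1.9e-10). Gsdmd (ENSMUSG00000022575, chromosome 15), the substrate from which both caspases make a pore, had 248, 226 and 231 CPM in mtDNA libraries and 176, 167 and 186 CPM in blank libraries. It rose 1.34-fold, with a 95% interval of 1.23 to 1.45 (log2 0.42 ± 0.06 SE, edgeR adjusted p = 1.52e-05).

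The order of the 10 changes ran from Zbp1 through Mlkl, Casp4, Casp1, Casp8, Gsdmd, Pycard and Nlrp3 to Ripk3 and Ripk1. Between 174 and 319 tested genes had a higher log2 fold change than Mlkl, Casp4 and Casp1, between 742 and 1968 had a higher one than Casp8, Gsdmd, Pycard and Nlrp3, and 4004 and 4024 had a higher one than Ripk3 and Ripk1. All 8 called genes had their highest mtDNA value in mtDNA 1, which was so for 35.9% of tested genes. Without mtDNA 1 all 8 still passed, with log2 fold changes of 3.09 for Zbp1, 1.503 for Mlkl, 1.45 for Casp4, 0.82 for Casp1, 0.42 for Casp8, 0.38 for Gsdmd, 0.22 for Pycard and 0.19 for Nlrp3. DESeq2 called 7 of the 10 higher (8.58% of all tested genes), as did edgeR with upper-quartile factors (8.67%). With library totals alone 6 were called (7.69%), and 6 were also called when edgeR tested for changes beyond 1.2-fold (5.27%); Nlrp3 and Pycard were the ones lost in both.

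**Figure D2:**
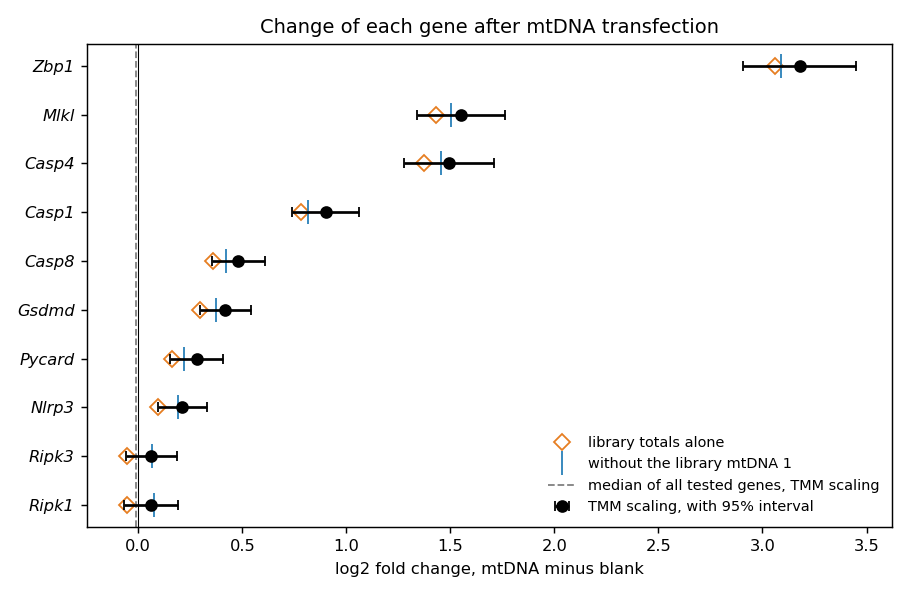
Log2 fold change (mtDNA minus blank) of each gene with its 95% interval from edgeR, beside the value under library totals alone (diamonds) and without mtDNA 1 (bars); the dashed line is the median of all tested genes, -0.01. Zbp1 at 3.18 lies far from Mlkl at 1.55 and Casp4 at 1.49, and the intervals of Ripk3 and Ripk1 cross 0.

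Ratios between genes within a library do not depend on the scaling between libraries, and 8 pairs were compared. For Mlkl over Ripk3 the ratio of reads was 0.764, 0.650 and 0.720 in mtDNA libraries, against 0.287, 0.197 and 0.285 in blank libraries, a 2.81-fold difference. For Zbp1 over Ripk3 it was 1.83, 1.53 and 1.51 in mtDNA libraries, against 0.257, 0.118 and 0.198 in blank libraries, an 8.92-fold difference. Both ratios were higher in every mtDNA library than in every blank library, while Ripk1 over Ripk3 overlapped between groups, with 0.794, 0.846 and 0.785 in mtDNA and 0.796, 0.798 and 0.836 in blank libraries. Casp8 over Ripk3 was 1.81, 1.60 and 1.59 in mtDNA libraries and 1.25, 1.25 and 1.23 in blank libraries.

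Within the pyroptosis branch Casp4 over Casp1 was higher in all mtDNA libraries, with ratios of 0.552, 0.572 and 0.639 in mtDNA libraries and 0.477, 0.353 and 0.345 in blank libraries. Casp1 over its adaptor Pycard was also higher, with 0.680, 0.677 and 0.618 in mtDNA libraries and 0.410, 0.422 and 0.452 in blank libraries. Gsdmd over Casp1 was lower, with 1.88, 2.01 and 2.09 in mtDNA libraries and 2.85, 2.69 and 2.81 in blank libraries, a 0.715-fold difference. Nlrp3 over Pycard overlapped between groups, at 0.894, 0.992 and 0.943 in mtDNA libraries and 0.995, 0.975 and 0.992 in blank libraries. In 6 of the 8 pairs the groups did not overlap. The share of such pairs among all tested genes was not computed. The ratios rest on the same counts as the fold changes above, so they are not separate support for them. Each of the 6 pairs had p = 0.1 in the exact two-sided permutation test over 20 assignments. That is the smallest p that 3 against 3 can give (0.133 adjusted over the 8 pairs). Ripk1 over Ripk3 had an exact permutation p of 0.8 and Nlrp3 over Pycard one of 0.3, so no pair passed, nor could any.

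**Figure D3:**
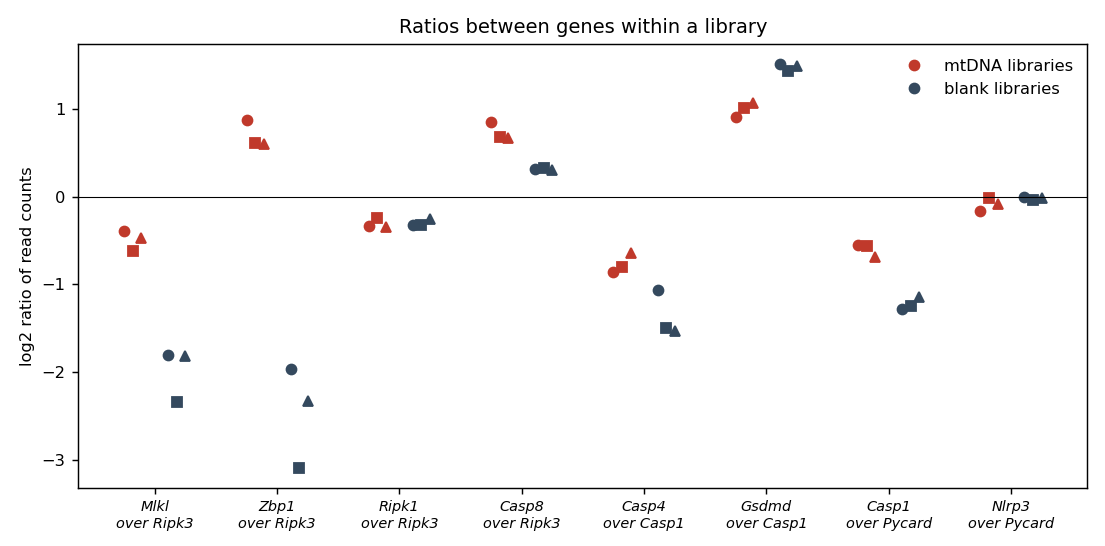
Log2 ratio of read counts between 2 genes of the same library for the 8 pairs, with mtDNA libraries left of blank libraries (circle, square and triangle are libraries 1, 2 and 3). The groups overlap only for Ripk1 over Ripk3 and for Nlrp3 over Pycard; the ratios are not corrected for gene length.

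Levels of different genes were compared per length, as TPM (reads per base as a share of the library's sum, set to a common scale) over the merged exons of the GENCODE M21 annotation. In mtDNA libraries Gsdmd was highest at 305 ± 8.20 TPM (SD, n = 3), followed by Casp1 at 244 ± 18.7, Casp8 at 229 ± 10.2, Zbp1 at 183 ± 14.7 and Ripk3 at 174 ± 5.13 TPM. Below them came Pycard at 146 ± 8.64, Nlrp3 at 129 ± 1.62, Mlkl at 123 ± 8.26, Casp4 at 57.6 ± 2.98 and Ripk1 at 38.7 ± 2.05 TPM. In blank libraries Gsdmd was again highest at 249 ± 16.1 TPM, followed by Ripk3 at 181 ± 4.96, Casp8 at 179 ± 6.10, Casp1 at 142 ± 6.93, Pycard at 131 ± 2.33 and Nlrp3 at 121 ± 3.39 TPM. Mlkl at 46.1 ± 8.498, Ripk1 at 40.3 ± 0.292, Zbp1 at 22.4 ± 8.17 and Casp4 at 22.3 ± 3.77 TPM closed the order.

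Some neighbours in these orders overlapped between libraries. In the mtDNA group these were Casp1 and Casp8, Zbp1 and Ripk3, and Nlrp3 and Mlkl. In the blank group they were Ripk3 and Casp8, Mlkl and Ripk1, and Zbp1 and Casp4. Merged exons span 3529 bases in Zbp1 and 3710 in Casp4, against 1989 and 1435 bases in their longest coding transcripts. With the longest coding transcript, a choice made after seeing the data, Zbp1 came second in mtDNA libraries at 236 ± 18.7 TPM and last of 10 in blank libraries at 28.6 ± 10.4 TPM. Casp4 was then at 108 ± 5.58 TPM in mtDNA and 41.5 ± 7.07 TPM in blank libraries. Gsdmd was highest and Ripk1 lowest in mtDNA libraries under each of the 3 lengths. Pycard, with 3800 bases, and Casp1, with 1497 bases, had the same length in all 3. The 3 lengths therefore do not show how the places of Pycard and Casp1, or of genes ranked against them, depend on their lengths.

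**Figure D4:**
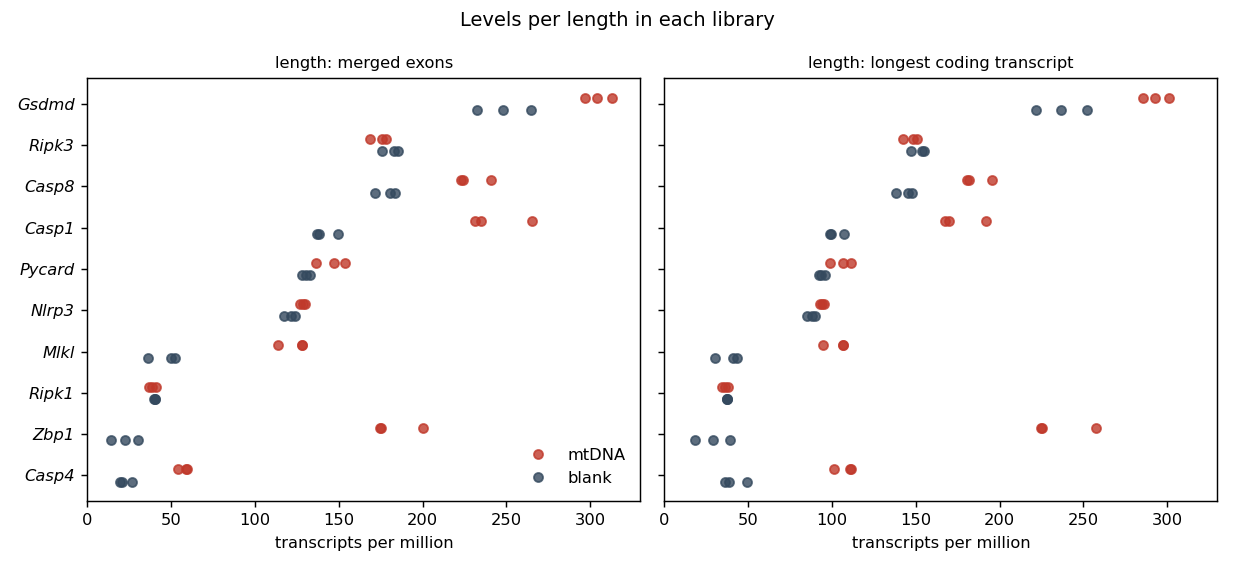
TPM of each gene in each library, with points for mtDNA (upper) and blank (lower) libraries, per length of merged exons (left) and of the longest coding transcript (right). Zbp1 lies in the upper part of the order in mtDNA libraries and at the low end in blank libraries, while Gsdmd is highest in both groups.

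Another 3 lists of other genes of these pathways were read from the same fit. Among 30 partners and regulators of necroptosis, all tested, 12 rose and 0 fell, beside 11.9% of all tested genes that rose and 5.98% that fell, and the median log2 fold change was 0.16. Adar, whose product edits double-stranded RNA and limits activation of ZBP1, had 329, 296 and 303 CPM in mtDNA libraries and 153, 106 and 133 CPM in blank libraries (2.37-fold, log2 1.25 ± 0.09 SE, edgeR adjusted p = 1.5e-10). Tlr3, the endosomal receptor of double-stranded RNA, had 26.3, 19.1 and 22.6 CPM in mtDNA libraries and 6.59, 4.81 and 6.21 CPM in blank libraries (3.86-fold, log2 1.95 ± 0.18 SE, edgeR adjusted p = 2.36e-08). Both were separated between groups, as was Rnf31, the catalytic subunit of the linear ubiquitin ligase, at 93.8 ± 10.5 CPM in mtDNA and 54.5 ± 4.89 CPM in blank libraries (SD, n = 3; log2 0.78 ± 0.09 SE, edgeR adjusted p = 5.06e-07).

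Of 27 inflammasome sensors and regulators 25 were tested, of which 7 rose and 2 fell, with a median log2 fold change of 0.04. Over all tested genes 11.9% rose and 5.98% fell, so the falls were near the background share. Aim2, a sensor of cytosolic DNA, had 67.7, 72.8 and 83.8 CPM in mtDNA libraries and 47.1, 43.7 and 51.3 CPM in blank libraries (1.59-fold, log2 0.67 ± 0.09 SE, edgeR adjusted p = 7.11e-06). Mefv, which encodes pyrin, stood at 45.9 ± 2.52 CPM in mtDNA and 31.1 ± 2.85 CPM in blank libraries (log2 0.57 ± 0.10 SE, edgeR adjusted p = 0.00017). Naip5, a flagellin sensor, was 1.48-fold higher (log2 0.57 ± 0.09 SE, edgeR adjusted p = 3.47e-05) but shares 23.8% of its 75-base windows with other transcripts, so its count is uncertain. Naip2 and Naip6, also among the 7 that rose, share 10.9% and 12.0% of their windows, so their counts are uncertain too. The falls were those of Card9, an adaptor of C-type lectin receptors, at 110 ± 1.56 CPM in mtDNA and 139.9 ± 8.17 CPM in blank libraries (log2 -0.34 ± 0.06 SE, edgeR adjusted p = 0.000325), and of Panx1, a membrane channel, at 85.7 ± 3.30 CPM in mtDNA and 101.2 ± 4.62 CPM in blank libraries (log2 -0.24 ± 0.07 SE, edgeR adjusted p = 0.0142). Panx1 no longer passed when mtDNA 3 (adjusted p = 0.0741, edgeR) or blank 3 (0.0691) was omitted, nor in DESeq2 (0.0849).

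Of 19 pyroptosis effectors and cytokine substrates 16 were tested, of which 9 rose and 0 fell (11.9% and 5.98% of all tested genes), with a median log2 fold change of 0.31. Irf1, a transcription factor induced by interferons, had 220, 210 and 206 CPM in mtDNA libraries and 85.0, 77.5 and 75.4 CPM in blank libraries (2.67-fold, log2 1.42 ± 0.06 SE, edgeR adjusted p = 1.07e-13). Irf2, a transcription factor known to drive Gsdmd in mouse, stood at 159 ± 7.45 CPM in mtDNA and 106 ± 5.33 CPM in blank libraries (log2 0.57 ± 0.06 SE, edgeR adjusted p = 3.93e-07). Il1rn, the antagonist of the interleukin 1 receptor, stood at 478 ± 45.3 CPM in mtDNA and 305 ± 11.0 CPM in blank libraries (log2 0.64 ± 0.06 SE, edgeR adjusted p = 3.32e-08). Il18, Il1b and Ninj1 were chosen after their values were seen. Il18, a substrate of caspase 1, rose to 38.9 CPM in mtDNA libraries, against 19.3 CPM in blank libraries (log2 1.00 ± 0.12 SE, edgeR adjusted p = 1.25e-06). Il1b, another substrate of caspase 1, did not pass, at 41.4 CPM in mtDNA and 41.3 CPM in blank libraries (log2 -0.009 ± 0.10 SE, edgeR adjusted p = 0.966). Ninj1, which drives plasma membrane rupture, had 180 CPM in mtDNA and 173 CPM in blank libraries (log2 0.05 ± 0.06 SE, edgeR adjusted p = 0.617). Gsdma and Gsdmc had no read in any library, where 3 reads would be 0.611 to 0.747 CPM on library totals alone. Gsdme, another pore-forming gasdermin, had 29.7 CPM in mtDNA and 35.3 CPM in blank libraries (edgeR adjusted p = 0.173).

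**Figure D5:**
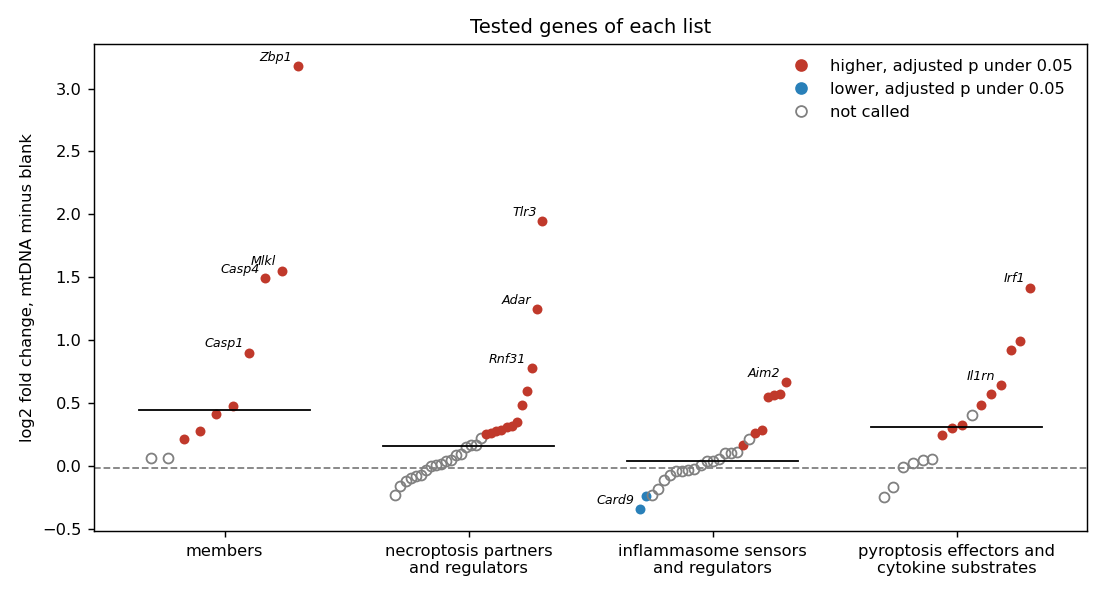
Log2 fold change (mtDNA minus blank) of every tested gene in the group of 10 and in the 3 lists; filled points passed edgeR's adjusted p under 0.05, black lines are list medians (0.45, 0.16, 0.04 and 0.31 from left to right) and the dashed line is the median of all tested genes, -0.01. The lists were chosen with earlier results known, so the medians are descriptions.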

How the data were processed

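Per the labels' protocols, poly(A) RNA of the 6 samples went into a directional library kit and was read from 1 end over 75 bases. The authors deposited raw counts of reads for each gene, which per the file headers are STAR's per-gene output. The submitters' processing notes name STAR 2.7.10a and the build GRCm39. Sources used here give neither the annotation release nor the strand setting. Symbols, lengths and overlaps came from GENCODE M21 (GRCm38), which named 52083 of the 55359 IDs; as its build differs from that of the counts, no coordinates are given from it.

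The comparison used the two-sided quasi-likelihood test of edgeR 4.0.16 (R 4.3.3) after its standard filter on low counts, with TMM factors between 0.947 and 1.05 and p-values adjusted by Benjamini-Hochberg over the 11190 genes that passed the filter, at a threshold of 0.05. Log2 fold changes are mtDNA minus blank, and SE was derived from that change divided by the square root of F. The floor of 3 reads covers only counting error. Libraries of 1 group were not copies of each other (chi-square per degree of freedom 1.54 to 2.28), so each counted once. The members and lists were chosen with earlier results of these data known. All 10 members are named, and of each list up to 3 risen and 3 fallen genes with the smallest p. Alternatives were other scaling factors and filters, DESeq2 1.42.0, limma-voom (limma 3.58.1), robust dispersion, edgeR's test for changes beyond 1.2-fold, a block on title numbers that adjoin, omission of each library, 0.5 added to counts in ratios, and other lengths. Sequence searches used Python 3.11.15.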

Additional observations from a re-analysis of the deposited data

How the results depend on the processing

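Under all 16 alternatives the calls of Zbp1, Mlkl, Casp4, Casp1, Casp8 and Gsdmd stayed, and over omissions of single libraries all 8 called members stayed (for Nlrp3 the highest adjusted p was 0.0446, without blank 2). Ripk1 and Ripk3 passed under no alternative and turned negative with upper-quartile factors (log2 -0.014 for Ripk1 and -0.012 for Ripk3) and library totals (-0.056 for Ripk1 and -0.055 for Ripk3). These scalings moved the median of all tested genes to -0.09 and -0.13. Over all tested genes, rises numbered 861 with library totals and 590 against a fold of 1.2, and falls 1504 with upper-quartile factors, 2356 with library totals, 224 in DESeq2 and 55 against a fold of 1.2; omissions gave 410 to 522 falls, the fewest without blank 3 and 437 without mtDNA 1, where fewer libraries entered the test. Of the necroptosis list 5 genes rose against a fold of 1.2, and 1 and 2 fell with upper-quartile factors and library totals. Of the sensor list 4 rose with library totals and 4 against a fold of 1.2; falls numbered 4 with upper-quartile factors, 5 with library totals, 1 in DESeq2, 0 against a fold of 1.2, and 1 to 2 over omissions (1 without mtDNA 3 or blank 3). Of the pyroptosis list 1 and 2 fell with upper-quartile factors and library totals. The cause of these differences was not tested.

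No label pairs the libraries, and deviations of neighbouring title numbers correlated at r of 0.0404 to 0.0449, across genes. With such a replicate block 1387 genes rose and 747 fell, and 8 members again rose. Every mtDNA library correlated best with the blank library of the neighbouring number. These correlations are small and, as deviations from group means, not independent of each other, so they cannot decide whether libraries were paired. Ratio differences moved by less than the spread between libraries when 0.5 was added to each count. TPM values moved with the length used, and the places of Zbp1, Casp4, Casp1 and Nlrp3, among others, depend on it. Zbp1 was at 149 TPM in mtDNA and 18.2 TPM in blank libraries with the longest transcript. Values also moved through the library's sum. Casp1 kept 1497 bases yet had 244, 187 and 176 TPM in mtDNA libraries with merged exons, longest transcripts and longest coding transcripts. Depth limits the genes below the filter, such as Casp12 with 35 reads in mtDNA and 21 in blank libraries.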
